A study of Mus musculus with 18 samples.

Results

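The data describe 10 genes of fatty acid synthesis and desaturation across the 6 groups of a mouse macrophage experiment: Acly, Me1, Acaca, Fasn, Elovl6, Scd1, Scd2, Fads1, Fads2 and Srebf1. They were found by gene symbol in the platform annotation, and all 10 were among the 11547 genes tested. The annotation gave them 25 probe sets, of which 22 passed the filter on low signals. The brightest probe set stood for each gene. The cells were RAW264.7, an established macrophage-like line from a mouse tumour induced by Abelson leukaemia virus. Total RNA was hybridised to Affymetrix Mouse Genome 430 2.0 arrays.

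The groups had 3 arrays each, and all cells were treated for 8 h. In the fraction group, cells were given 10 ug/mL of a sub-fraction prepared from Hypericum perforatum, the medicinal herb St John's wort. The 4CS group received a mixture of 4 compounds, with amentoflavone at 0.07 uM, quercetin at 0.08 uM, chlorogenic acid at 0.2 uM and pseudohypericin at 0.03 uM. The vehicle group received 0.1% DMSO, and the labels do not say whether the fraction and 4CS were dissolved in it. The other three groups received the same treatments together with 10 ug/mL lipopolysaccharide (LPS), a component of the outer membrane of Gram-negative bacteria that macrophages sense through Toll-like receptor 4. All plates were treated in the dark and then kept in ambient light for 30 min. Whether the replicate arrays stem from independently grown cultures is not said in the labels, and each p-value therefore reflects only array-to-array spread, part of which may be technical. All groups are 1 cell line, and the composition of the fraction beyond its name is not given in the labels.

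Cells make fatty acids from citrate. Acly, ATP citrate lyase, splits citrate in the cytosol into acetyl-CoA, and Me1, cytosolic malic enzyme, supplies NADPH. Acaca, acetyl-CoA carboxylase alpha, makes malonyl-CoA, and Fasn, fatty acid synthase, builds palmitate from acetyl-CoA and malonyl-CoA. Elovl6 elongates palmitate, and Scd1 and Scd2, stearoyl-CoA desaturases, place the delta-9 double bond that makes saturated chains monounsaturated. Fads1 and Fads2, the delta-5 and delta-6 desaturases, act on polyunsaturated chains. Srebf1 encodes SREBP-1, a transcription factor that activates many of these genes after it is cleaved and released from membranes, and its gene is itself a target of the nuclear receptor LXR. In macrophages these lipids serve membranes, lipid droplets and the response to bacterial products.

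Most members lie on 2 chromosomes. On GRCm38.p6, Fads2 (chr19:10062765-10101503) and Fads1 (chr19:10182877-10196874) lie near each other on chromosome 19, which also holds Scd2 (chr19:44293676-44306864) and Scd1 (chr19:44394450-44407709). Chromosome 11 holds Srebf1, Acaca, Acly (chr11:100476352-100528000) and Fasn (chr11:120805958-120825166), chromosome 3 holds Elovl6 (chr3:129532386-129638495), and chromosome 9 holds Me1.

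The promoter sequences of 5 members are shown because these genes were lower in fraction-treated cells both with and without LPS, as given below, and RefSeq supplied a window for each. Each is the 250 bases before the RefSeq start on GRCm38.p6, written 5′ to 3′ on the strand of the gene, with motif letters in capitals. The motifs searched on both strands were the sterol regulatory element TCACNCCAC, the E-box CACGTG, the NF-Y box CCAAT, the GC box GGGCGG bound by Sp1, and the LXR element, 2 copies of AGGTCA with 4 bases between them. Reverse complements are capitalised too, so ATTGG marks an NF-Y box and CCGCCC a GC box on the other strand.
Fasn (chr11:120824548-120824797, minus strand): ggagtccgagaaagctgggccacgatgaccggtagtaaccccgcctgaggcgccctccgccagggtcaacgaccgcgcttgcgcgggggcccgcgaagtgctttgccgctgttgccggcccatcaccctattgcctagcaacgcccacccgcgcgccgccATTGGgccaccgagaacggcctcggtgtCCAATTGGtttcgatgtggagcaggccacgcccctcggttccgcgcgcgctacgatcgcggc
Acly (chr11:100528001-100528250, minus strand): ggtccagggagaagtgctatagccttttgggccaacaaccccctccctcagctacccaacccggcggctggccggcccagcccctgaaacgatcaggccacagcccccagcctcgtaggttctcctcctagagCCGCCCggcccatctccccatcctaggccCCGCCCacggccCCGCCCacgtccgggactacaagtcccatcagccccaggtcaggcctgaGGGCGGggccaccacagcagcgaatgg
Fads2 (chr19:10101504-10101753, minus strand): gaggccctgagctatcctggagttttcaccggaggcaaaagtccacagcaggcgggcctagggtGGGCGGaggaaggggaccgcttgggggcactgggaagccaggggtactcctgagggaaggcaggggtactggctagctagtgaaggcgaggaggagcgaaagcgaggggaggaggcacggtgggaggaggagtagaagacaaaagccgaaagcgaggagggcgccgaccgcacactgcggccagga
Elovl6 (chr3:129532136-129532385, plus strand): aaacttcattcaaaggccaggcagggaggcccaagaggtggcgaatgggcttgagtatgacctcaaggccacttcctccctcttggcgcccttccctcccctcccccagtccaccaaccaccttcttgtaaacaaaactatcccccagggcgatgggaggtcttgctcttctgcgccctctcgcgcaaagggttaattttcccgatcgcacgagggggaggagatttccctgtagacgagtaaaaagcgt
Acaca (chr11:84195188-84195437, plus strand): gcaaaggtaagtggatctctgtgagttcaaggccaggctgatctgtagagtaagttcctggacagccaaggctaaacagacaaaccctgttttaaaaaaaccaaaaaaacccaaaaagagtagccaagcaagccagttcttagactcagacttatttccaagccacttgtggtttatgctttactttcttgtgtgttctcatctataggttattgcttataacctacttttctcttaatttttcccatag
The Fasn and Acaca windows lie inside the RefSeq spans of these genes, before a start downstream of the outermost one. That of Fasn holds 3 NF-Y boxes, and those starting at positions -62 and -59, counted back from the start with -1 next to it, overlap in CCAATTGG. Acly has 4 GC boxes between positions -117 and -27, and Fads2 has 1 at position -186. None of the 5 motifs lies in the Elovl6 or the Acaca window.

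RefSeq gave promoter windows for 7 of the 10 members, 10 windows in all, each of 300 bases with 50 after the start. The NF-Y box was in 5 of these 10 windows, from Acly, Fasn, Me1 and Srebf1, and in 37.4% of all 32851 promoter windows. The GC box was in 5 windows, from Acly, Fads2, Me1 and Srebf1, and in 35.7% of all windows. The sterol regulatory element, the E-box and the LXR element were in 0 of the 10 windows, against 1.24%, 7.15% and 0.0152% of all windows. These counts say only which letters are in these windows.

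The arrays share a common scale, with array medians between 52.1 and 66.8 intensity units. On the brightest probe sets, the lowest member intensity, 159 for Elovl6, lay above every array median. A dimmer kept probe set of Elovl6 went down to 53.8, within the range of the array medians. Of 9 macrophage markers, 8 (Adgre1, Cd68, Csf1r, Itgam, Cd14, Lyz2, Spi1 and Fcgr1) lay above the array median on all 18 arrays and Mertk did not. The cytokine genes Il1b and Tnf, which macrophages induce on contact with LPS, were 7.30 and 1.62 higher on the log2 scale in vehicle + LPS cells than in vehicle cells, in the direction of the labels. Markers of hepatocytes, epithelial cells, fibroblasts, T cells and B cells were above the array median on all arrays in 0 cases. Of the 4 adipocyte markers measured, Fabp4, a fatty acid binding protein that macrophages also make, was above it and the other three were not.

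In the comparisons below, a difference is the log2 intensity of the treated group minus that of its control, with the standard error of a linear model fitted with limma to all 18 arrays. A gene was called changed at a Benjamini-Hochberg adjusted p under 0.05 over all 11547 genes, and each such comparison set 3 arrays against 3. Intensities are not comparable between probe sets, so levels are set only within a gene. In bulk RNA, fewer cells with a transcript and less transcript per cell cannot be told apart.

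**Figure D1:**
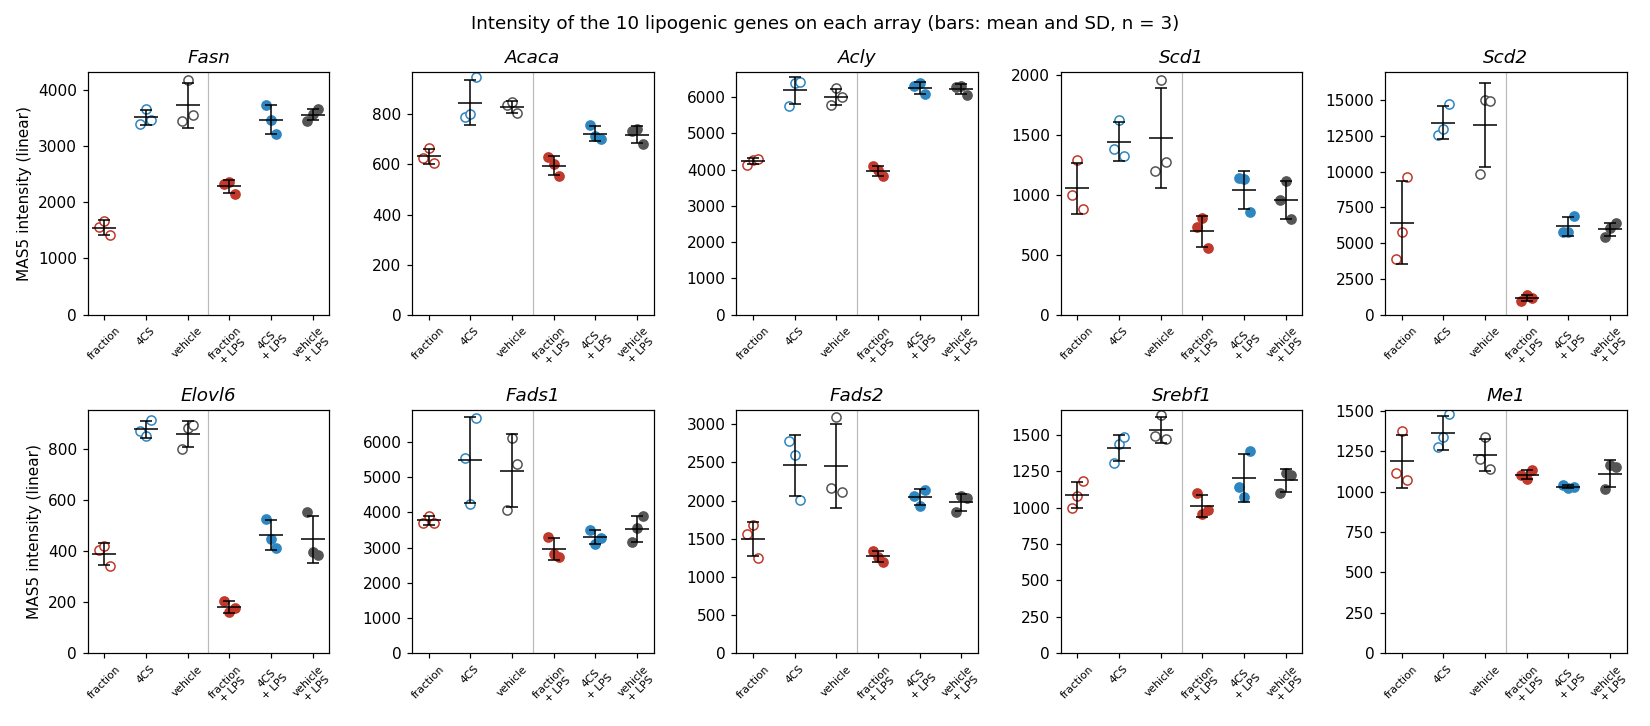
Linear intensity (arbitrary units) of the 10 genes on each of the 18 arrays, 1 panel per gene, with bars for the group mean and SD (n = 3) and the LPS groups to the right of the line. Fasn, Acly, Elovl6 and Scd2 are lower in fraction than in vehicle cells on every array at both LPS states, while the 4CS arrays overlap the vehicle arrays in all 10 panels.

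The fraction without LPS lowered most of the pathway. All 8 genes that were called, of the 10, were lower: Fasn, Elovl6, Scd2, Fads2, Acly, Srebf1, Fads1 and Acaca. Fasn, Elovl6 and Scd2 were each more than 1 log2 unit lower in fraction cells, and Scd1 and Me1 were not called. Over all 11547 genes, 31.2% were called in either direction and 15.3% were called lower. The median of the 10 differences was -0.50, against 0.018 over all genes.

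Fasn, the enzyme that assembles palmitate, had intensities of 1562, 1667 and 1415 in fraction cells, against 3438, 4177 and 3550.3 in vehicle cells. The fraction arrays formed a narrow band below every vehicle array. The difference was -1.26 ± 0.087 (adjusted p = 2.6e-09, limma), or 2.40-fold lower in fraction cells, and 145 of the 11547 genes had a more negative difference. Acaca, which supplies malonyl-CoA to Fasn, was at 626, 666 and 607 in fraction cells, against 837, 849 and 804 in vehicle cells. Its arrays did not overlap either, with a smaller difference of -0.39 ± 0.093 (adjusted p = 0.0032). Acly, which makes the acetyl-CoA, had 4129.6, 4271 and 4288 in fraction cells, against 5794, 6244 and 5996 in vehicle cells. The difference of -0.51 ± 0.064 (adjusted p = 6.5e-06) was again without overlap. Me1 overlapped between the groups, at 1116, 1377 and 1075 in fraction cells and 1202, 1336 and 1139.7 in vehicle cells, with a difference of -0.049 ± 0.10 and a 95% interval of -0.26 to 0.16.

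Elovl6, the elongase of palmitate, was at 404, 418 and 339 in fraction cells, against 798, 881 and 893 in vehicle cells. All fraction arrays lay well under the vehicle arrays, and the difference was -1.15 ± 0.14 (adjusted p = 4.5e-06, 2.22-fold lower). Scd2, a delta-9 desaturase, varied more, with 3907, 5764 and 9590.3 in fraction cells and 9860.2, 14995 and 14933 in vehicle cells. Fraction array 3 came close to vehicle array 1, but the groups did not overlap, and the difference was -1.12 ± 0.22 (adjusted p = 6.9e-04). Scd1, its paralogue, had 996, 1289 and 879 in fraction cells and 1200.0, 1957 and 1272 in vehicle cells. These groups overlapped through fraction array 2, and the difference of -0.47 ± 0.19 did not pass (adjusted p = 0.0683). It passed in 3 of 17 alternatives: without fraction array 2 (-0.62, adjusted p = 0.03), without vehicle array 1 (-0.60, adjusted p = 0.0363) and in the fit with the replicate number as a block (adjusted p = 0.002). Without vehicle array 2 it was -0.25 (adjusted p = 0.370).

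Both genes of the polyunsaturated branch were called. Fads2, the delta-6 desaturase, had 1563, 1680.3 and 1250.1 in fraction cells, against 2170.3, 3092 and 2106 in vehicle cells. Vehicle array 2 stood highest, the groups did not overlap, and the difference was -0.70 ± 0.14 (adjusted p = 7.2e-04). Fads1, the delta-5 desaturase, had 3699, 3905 and 3704 in fraction cells, against 4079, 6107 and 5383 in vehicle cells. Here the fraction arrays were close together and the vehicle arrays spread widely, and the difference was -0.44 ± 0.14 (adjusted p = 0.0247). The Fads1 call was lost when fraction array 1 or 3 or vehicle array 2 or 3 was left out, with adjusted p between 0.0621 and 0.144, and with no intensity trend (adjusted p = 0.0563).

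Srebf1, the gene of SREBP-1, was also lower, at 999, 1080.5 and 1182 in fraction cells, against 1493, 1637 and 1472 in vehicle cells. No fraction array reached a vehicle array, and the difference was -0.50 ± 0.10 (adjusted p = 9.9e-04). In all, 8 of the 10 genes had every fraction array below every vehicle array, a pattern that 20.6% of all genes shared. The calls of 7 of these 8 genes, Fads1 excepted, held under every alternative run for this comparison, left-out arrays and other scalings included.

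**Figure D2:**
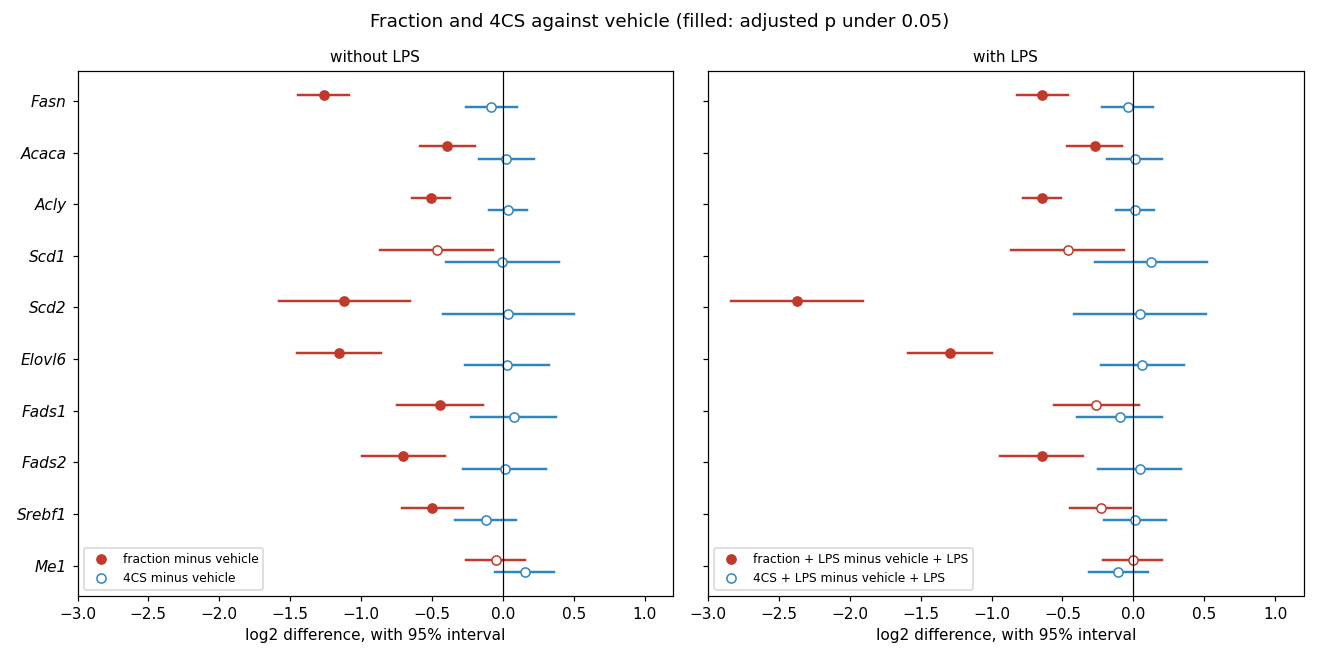
Log2 difference from vehicle of the 10 genes, with 95% intervals, for the fraction (red) and 4CS (blue), without LPS on the left and with LPS on the right. Filled points have an adjusted p under 0.05: 8 and 6 of the fraction points are filled and 0 of the 4CS points, and Scd2 lies at -2.37 for the fraction with LPS.

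With LPS present in both groups, the fraction lowered 6 of the 10 genes, Scd2, Elovl6, Acly, Fads2, Fasn and Acaca, and raised 0. Srebf1, Fads1, Scd1 and Me1 were not called. Among all genes 23.8% were called and 12.7% were called lower. The median of the 10 differences was -0.55, against -0.017 over all genes. For 7 genes every fraction + LPS array was below every vehicle + LPS array, as for 18.7% of all genes.

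Scd2 had the largest difference of the 10. Its intensities were 941, 1342 and 1195 in fraction + LPS cells, against 5437, 6049 and 6387 in vehicle + LPS cells. The fraction + LPS arrays were the lowest of the 18, and the difference was -2.37 ± 0.22 (adjusted p = 2.7e-07, 5.18-fold lower). Only 8 of the 11547 genes had a more negative difference in this comparison. Elovl6 had 204, 159 and 174 in fraction + LPS cells, against 551, 397 and 384 in vehicle + LPS cells. Vehicle + LPS array 1 was the highest, the groups did not overlap, and the difference was -1.30 ± 0.14 (adjusted p = 1.9e-06).

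Acly was at 4104, 3993 and 3827 in fraction + LPS cells, against 6289.8, 6308 and 6058 in vehicle + LPS cells. Both groups were tight and far apart, with a difference of -0.65 ± 0.064 (adjusted p = 5.6e-07). Fasn had 2319.9, 2366 and 2151 in fraction + LPS cells, against 3447, 3562 and 3649 in vehicle + LPS cells. It was lower on every fraction + LPS array, with a difference of -0.64 ± 0.087 (adjusted p = 2.5e-05, 1.56-fold lower). Fads2 had 1341, 1264 and 1194 in fraction + LPS cells, against 1851, 2056 and 2033 in vehicle + LPS cells. The groups did not overlap and differed by -0.65 ± 0.14 (adjusted p = 0.0022).

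Acaca gave the smallest called difference, -0.27 ± 0.093 (adjusted p = 0.0386), from 628, 603 and 555 in fraction + LPS cells, against 735, 742 and 680.1 in vehicle + LPS cells. The arrays did not overlap, yet the call was lost without vehicle + LPS array 1 or 2 or fraction + LPS array 2 or 3 (adjusted p between 0.0685 and 0.153), under median centring (adjusted p = 0.195), with no filter, with every probe set tested and with only the compared arrays fitted (adjusted p = 0.0562, 0.0556 and 0.116). It was called in 8 of 17 alternatives. Srebf1 had 1099, 954 and 986 in fraction + LPS cells, against 1099.8, 1242 and 1223 in vehicle + LPS cells. These arrays did not overlap, though the nearest were almost equal, with a difference of -0.23 ± 0.10 that did not pass (adjusted p = 0.116). For Scd1 the difference was -0.46 ± 0.19 (adjusted p = 0.0849), for Fads1 -0.26 ± 0.14 (adjusted p = 0.213) and for Me1 -0.0047 ± 0.10 (95% interval -0.21 to 0.20), all with overlapping arrays. Scd1 had 734, 804 and 553 in fraction + LPS cells, against 959.8, 1119 and 798 in vehicle + LPS cells, lower at each replicate number. It passed in 1 of 17 alternatives, the limma fit with the replicate number as a block (adjusted p = 0.0028). The summed level of the 4 adipocyte markers, of which Fabp4 alone was above the array median, was 4730.2 to 4962 in fraction + LPS cells, against 1976 to 3615 in vehicle + LPS cells. Its part in these differences was not tested.

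The other probe sets of the members gave the same picture for the largest effects. All 3 probe sets of Scd2, of Elovl6 and of Acly were called lower in fraction cells at both LPS states when every kept probe set was tested on its own. The Scd2 probe sets ranged from -1.40 to -0.98 without LPS and from -2.37 to -2.06 with LPS. Of the 2 probe sets of Scd1, the dimmer one was called lower without LPS (-0.54, adjusted p = 0.0256) and with LPS (-0.52, adjusted p = 0.0379). The second Fads1 probe set did not show the fall, at -0.096 without LPS (adjusted p = 0.819). Of the 2 probe sets of Acaca, 1 was called lower without LPS (-0.51 and -0.39 for the 2) and 0 with LPS (-0.57 and -0.27). The second Me1 probe set was at 0.19 without LPS and at -0.39 with LPS, neither called. For Fads2, 1 of 3 probe sets was not called with LPS (-0.11). That one, and 1 of the 3 Acly probe sets, are of a kind open to cross-hybridisation. Fasn and Srebf1 each rest on 1 probe set.

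**Figure D3:**
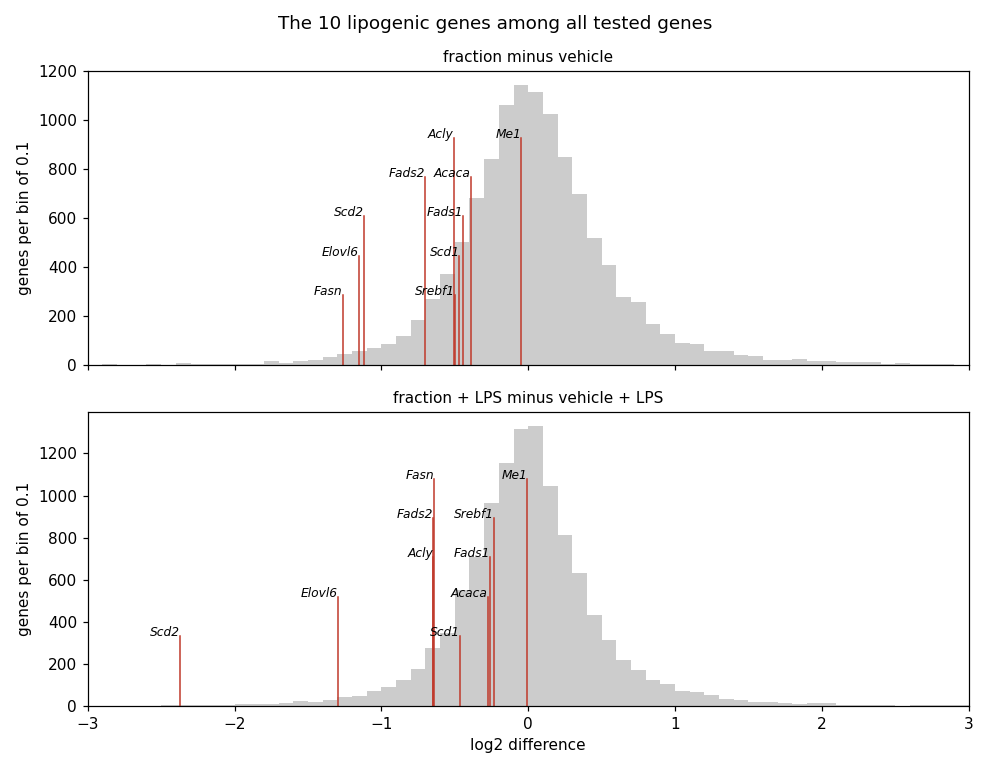
Histograms of the log2 differences of all 11547 genes (grey, bins of 0.1) for fraction minus vehicle (top) and fraction + LPS minus vehicle + LPS (bottom), with red lines at the 10 genes. Line heights carry no value, and 24 genes (top) and 12 genes (bottom) lie beyond the axis; all 10 lines are at or left of 0, and Scd2 lies at -1.12 in the top panel and -2.37 in the bottom panel.

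The 4 compounds given together were compared with vehicle to ask whether they change these genes. Limma called 0 of the 10 genes, and 0 of all 11547 (0%), without LPS and likewise with LPS. At an unadjusted p under 0.05 there were 0 members in either comparison, and 565 and 934 genes in all. The 10 differences ran from -0.12 to 0.15 without LPS and from -0.11 to 0.12 with LPS, and the arrays of all 10 genes overlapped, where 8.31% and 12.6% of all genes had groups that did not.

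Fasn had 3395, 3656 and 3466 in 4CS cells, against the vehicle values of 3438 to 4177, a difference of -0.082 with a 95% interval of -0.26 to 0.10. The interval does not reach the fraction's difference of -1.26. Scd2 had 12559, 12967 and 14710.5 in 4CS cells and 5799, 5795 and 6912 in 4CS + LPS cells, against 9860.2 to 14995 in vehicle cells and 5437 to 6387 in vehicle + LPS cells. Its intervals were -0.42 to 0.50 without LPS and -0.42 to 0.51 with LPS. Elovl6 had 868, 848 and 912 in 4CS cells and 525, 445 and 411 in 4CS + LPS cells, with intervals of -0.26 to 0.33 and -0.23 to 0.36. Over the 10 genes, the 95% intervals lay within -0.42 and 0.50 without LPS and within -0.42 and 0.52 with LPS. Differences within these bounds were not resolved by 3 arrays a group. Leaving out vehicle + LPS array 1 raised the count over all genes with LPS to 191, and the member count stayed at 0 under every alternative.

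A direct comparison of the fraction with 4CS uses the same fraction arrays as above and is not independent of the comparison with vehicle. Without LPS the same 8 genes were called lower in fraction than in 4CS cells, where 32.4% of all genes were called and 15.4% were lower. For 9 genes, all but Me1, the arrays lay apart with the fraction below, as for 21.7% of all genes. Fasn differed by -1.18 ± 0.087 (adjusted p = 6.7e-09), Elovl6 by -1.18 ± 0.14 and Scd2 by -1.16 ± 0.22. Fads2 (-0.71), Acly (-0.55), Fads1 (-0.52), Acaca (-0.41) and Srebf1 (-0.38) followed. The differences of Scd1 (-0.46, adjusted p = 0.069) and Me1 (-0.20, adjusted p = 0.131) were not called, although both passed without fraction array 2 (adjusted p = 0.0299 and 0.026). Scd1 also passed with centring on the tested genes, with only the compared arrays and with the replicate block. Fads1 was lost without 4CS array 3 (-0.36, adjusted p = 0.0725).

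With LPS, 7 genes were lower in fraction + LPS than in 4CS + LPS cells, among 28.2% of all genes called and 16.2% lower. The arrays of these 7 genes did not overlap, as for 23.9% of all genes. Scd2 differed by -2.42 ± 0.22 (adjusted p = 1.7e-07), Elovl6 by -1.36 ± 0.14, Fads2 by -0.69 ± 0.14, Acly by -0.66 ± 0.064 and Fasn by -0.60 ± 0.087. Scd1 and Acaca were also called, at -0.59 (adjusted p = 0.025) and -0.28 (adjusted p = 0.0284). Both calls were lost under median centring, that of Scd1 also with no intensity trend. They were also lost when all arrays numbered 1 were left out (adjusted p = 0.140 for Scd1 and 0.124 for Acaca). The Scd1 call was lost without 4CS + LPS array 1 or 2 or fraction + LPS array 3 (adjusted p between 0.0935 and 0.143). Its difference was then between -0.52 and -0.43. The Acaca call was lost without 4CS + LPS array 1 or 2 or fraction + LPS array 2 or 3 (adjusted p between 0.0553 and 0.121). Its difference was then between -0.29 and -0.23, close to that of the full fit. Srebf1 (-0.24) passed only without 4CS + LPS array 2 (adjusted p = 0.0492). Fads1 (-0.16) and Me1 (0.10) were not called. On the brightest Me1 probe set the arrays lay apart in the other direction, with 1077 to 1135 in fraction + LPS cells, against 1024 to 1041 in 4CS + LPS cells. The second Me1 probe set was at -0.13, also not called.

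LPS without other treatment, in vehicle cells, went with lower levels of genes of elongation and desaturation and of Srebf1. Elovl6 and Scd2 were about 1 log2 unit lower in vehicle + LPS cells, and Scd1, Fads1 and Srebf1 were also called lower. Fasn, Acly, Acaca, Fads2 and Me1 were not called. Of all genes, 31.9% were called and 21.8% were lower, and the median of the 10 differences was -0.33, against -0.075 over all genes. For 7 genes every vehicle + LPS array was below every vehicle array, as for 26.9% of all genes. How the arrays are scaled matters here: when each array was centred on the median of its tested genes, the median difference of all genes became 0.11, and under centring on the median of all probe sets it became -0.21. Under the first of these, 3 members were called, Scd2 and Elovl6 lower and Acly higher (0.23, adjusted p = 0.0105).

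Elovl6 had 551, 397 and 384 in vehicle + LPS cells, against 798, 881 and 893 in vehicle cells. The groups lay far apart, and the difference was -0.97 ± 0.14 (adjusted p = 3.0e-05). Scd2 had 5437, 6049 and 6387 in vehicle + LPS cells, against 9860.2, 14995 and 14933 in vehicle cells. Every LPS array was under every vehicle array, with a difference of -1.13 ± 0.22 (adjusted p = 5.9e-04). Scd1 was at 959.8, 1119 and 798 in vehicle + LPS cells, against 1200.0, 1957 and 1272 in vehicle cells. It differed by -0.60 ± 0.19 (adjusted p = 0.0202), but the call was lost without vehicle array 2 (-0.38, adjusted p = 0.143), without vehicle + LPS array 3 (adjusted p = 0.105), and under quantile normalisation or centring on the tested genes (adjusted p = 0.0513 and 0.0999).

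Fads1 had 3152, 3551 and 3892 in vehicle + LPS cells, against 4079, 6107 and 5383 in vehicle cells. Its difference of -0.54 ± 0.14 (adjusted p = 0.007) was lost without vehicle array 2 (adjusted p = 0.0507) and with centring on the tested genes (adjusted p = 0.0812). Srebf1 had 1099.8, 1242 and 1223 in vehicle + LPS cells, against 1493, 1637 and 1472 in vehicle cells, a difference of -0.37 ± 0.10 (adjusted p = 0.0095) without overlap. Under quantile normalisation and centring on the tested genes its adjusted p was 0.0507 and 0.189. Fasn stayed level, with 3447, 3562 and 3649 in vehicle + LPS cells, inside the range of vehicle cells, and a difference of -0.062 ± 0.087 (95% interval -0.24 to 0.12). The differences were 0.049 for Acly, -0.21 for Acaca, -0.29 for Fads2 and -0.14 for Me1. When every kept probe set was tested on its own, 2 of 3 were called lower for Fads2 (-0.59 to -0.29). So were 2 of 3 for Elovl6, 1 of 2 for Fads1 and all of Scd1 and Scd2. The 2 probe sets differed in sign for Acaca (-0.21 and 0.15) and for Me1 (-0.14 and 0.16). The summed level of the adipocyte markers was 1976 to 3615 in vehicle + LPS cells, against 285 to 485 in vehicle cells, and its part in these differences was not tested.

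In 4CS-treated cells, LPS lowered Scd2 (-1.12 ± 0.22, adjusted p = 8.5e-04), Elovl6 (-0.94 ± 0.14, adjusted p = 6.1e-05), Fads1 (-0.71 ± 0.14, adjusted p = 0.001) and Me1 (-0.40 ± 0.10, adjusted p = 0.0055). Of all genes 24.6% were called and 16.3% were lower, and 6 members had arrays that did not overlap, all with LPS below, as had 25.9% of all genes. Scd2, Elovl6 and Fads1 kept the call under every scaling and every left-out array, while that of Me1 was lost under both centrings (adjusted p = 0.0529 and 0.0916). When every kept probe set was tested on its own, all 3 of Scd2 were called lower, but only 1 of 3 for Elovl6 (-0.94 to -0.46). For Fads1 and for Me1 1 of 2 was called, and for Fads2 1 of 3 (-0.54 to -0.26). Me1 had 1041, 1024 and 1027 in 4CS + LPS cells, a tight group below the 1274, 1337 and 1482 of 4CS cells. Scd1 (-0.47) passed with only the compared arrays (adjusted p = 0.0136) and with the replicate block. Srebf1 (-0.24) passed without 4CS + LPS array 3 (adjusted p = 0.0255). The interaction of 4CS with LPS, the difference between the LPS effects in 4CS and in vehicle cells, was called by limma for 0 members and 0 genes (0%), with 412 genes and 0 members at an unadjusted p under 0.05. Its member values ran from -0.26 to 0.13.

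In fraction-treated cells, LPS moved Fasn and Scd2 in opposite directions. Fasn was higher with LPS in these cells, and Scd2, Elovl6 and Scd1 were lower. Of all genes 37.3% were called, 11.5% higher and 25.8% lower. The arrays of 5 members did not overlap with LPS below (33.1% of all genes), and those of 1, Fasn, with LPS above (16%). Fasn had 2319.9, 2366 and 2151 in fraction + LPS cells, against 1562, 1667 and 1415 in fraction cells. The groups did not overlap, and the difference was 0.56 ± 0.087 (adjusted p = 3.9e-05, 1.47-fold higher). Scd2 had 941, 1342 and 1195 in fraction + LPS cells, against 3907, 5764 and 9590.3 in fraction cells. Its difference was -2.39 ± 0.22 (adjusted p = 8.9e-08, 5.23-fold lower).

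Elovl6 fell by 1.11 on the log2 scale in fraction + LPS cells relative to fraction cells (adjusted p = 4.3e-06), beside LPS differences of -0.94 in 4CS cells and -0.97 in vehicle cells. Scd1 was called too (-0.60 ± 0.19, adjusted p = 0.0179), and lost the call without fraction array 2 or fraction + LPS array 3 (adjusted p = 0.107 and 0.108) and under all 3 other scalings (adjusted p between 0.0548 and 0.102). Fads1 missed the threshold at -0.36 ± 0.14 (adjusted p = 0.0572), and passed in 6 of 17 alternatives, among them without fraction + LPS array 1 (adjusted p = 0.0399), under quantile normalisation (adjusted p = 0.0342), with the 75th percentile filter (adjusted p = 0.0499) and with only the compared arrays (adjusted p = 0.0098). With centring on the tested genes it was -0.17 (adjusted p = 0.421). Acly, Acaca, Fads2, Srebf1 and Me1 were not called, although Acly passed under quantile normalisation (-0.15, adjusted p = 0.0476). Of the 3 Fads2 probe sets tested on their own, 1 was called lower (-0.58 to -0.019 over the 3). The calls of Fasn, Scd2 and Elovl6 held under every alternative run. The median of the 10 differences was -0.17, against -0.11 over all genes, and in 4CS cells it was -0.33, against -0.074.

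**Figure D4:**
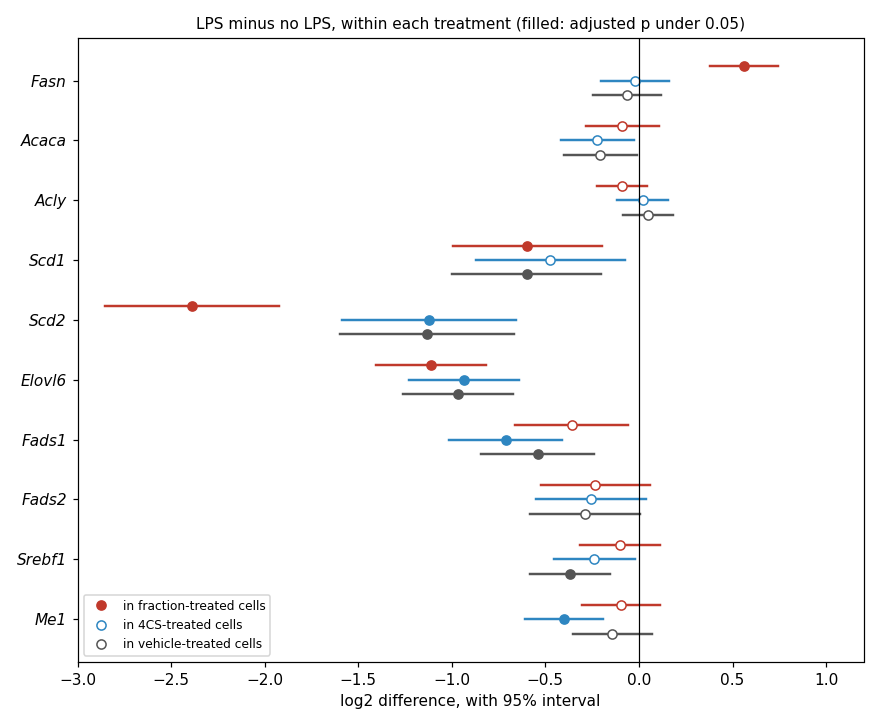
Log2 difference between LPS and no LPS for the 10 genes, with 95% intervals, in fraction-treated (red), 4CS-treated (blue) and vehicle-treated (grey) cells. Filled points have an adjusted p under 0.05: Fasn is filled to the right of 0 in fraction cells only, and Scd2 lies at -2.39 in fraction cells, against -1.12 in 4CS cells and -1.13 in vehicle cells.

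The interaction of fraction and LPS tests whether the LPS effect differed between fraction and vehicle cells. Of all genes, 2.14% were called, 0.892% positive and 1.25% negative. Among the members, Fasn and Scd2 were called, in opposite directions. For Fasn the interaction was 0.62 ± 0.12 (adjusted p = 0.01): its LPS difference was 0.56 in fraction cells, against -0.062 in vehicle cells. Put the other way, the fraction lowered Fasn 1.56-fold with LPS, against 2.40-fold without. The call held under every single left-out array, and was lost under median centring (0.74, adjusted p = 0.104) and when all 6 arrays numbered 1 were left out (0.65, adjusted p = 0.054).

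For Scd2 the interaction was -1.26 ± 0.31 (adjusted p = 0.0401), so that the fraction lowered it 5.18-fold with LPS, against 2.17-fold without. The call was lost in 8 of the 12 cases that left out 1 array of these groups, without vehicle array 1 or 3, fraction array 2 or 3, vehicle + LPS array 2 or 3, or fraction + LPS array 1 or 3, with adjusted p from 0.0572 to 0.109. In these cases the interaction ran from -1.35 to -0.92, on both sides of the value with all arrays. Without fraction array 3, the highest fraction array of Scd2, it was -0.92 (adjusted p = 0.0686). The other 2 Scd2 probe sets gave -0.88 and -1.07, neither called when all probe sets were tested. The Scd2 call was also lost under quantile normalisation, median centring, centring on the tested genes, no filter, no intensity trend, every probe set and only the compared arrays, and was made in 8 of 23 alternatives. The remaining 8 members had interactions between -0.14 and 0.27, none of them called. Their other probe sets reached -0.58 for Me1 and 0.54 for Fads2, also not called. The summed level of the adipocyte markers was 4730.2 to 4962 in fraction + LPS cells and 307 to 426 in fraction cells, against 1976 to 3615 in vehicle + LPS cells and 285 to 485 in vehicle cells. Its part in the interactions was not tested.

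The order of the group means differed between members. For Fasn, the mean of fraction cells was 1548 ± 127 (SD, n = 3), or 41.6% of the highest group, and that of fraction + LPS cells 2279 ± 113. The other four groups, between 3460.3 and 3722, overlapped their neighbours. Acly had the same 2 low groups in the other order, with 3974 ± 139 in fraction + LPS cells and 4229 ± 86.9 in fraction cells, 2 groups that did not overlap, and the other groups overlapping between 6012 and 6260.4.

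Scd2 and Elovl6 fell into steps. For Scd2, 4CS and vehicle cells were highest and overlapped, at 13412 ± 1143 and 13262 ± 2947. Fraction (6420.4 ± 2898), 4CS + LPS (6168 ± 644) and vehicle + LPS cells (5958 ± 482) overlapped at the middle step. Fraction + LPS cells stood alone at 1159.6 ± 203, 8.65% of the highest group. Elovl6 had the same steps, with 179 ± 22.6 in fraction + LPS cells, or 20.5% of the highest group, and 387 ± 42.3 in fraction cells, overlapping vehicle + LPS cells at 444 ± 93.0.

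Fraction + LPS cells also had the lowest mean of Acaca (595 ± 36.9), Scd1 (697 ± 129.8), Fads1 (2948 ± 311), Fads2 (1266 ± 73.8) and Srebf1 (1013 ± 76.0). For each of these 5 genes that group overlapped the next one up. The highest groups were 4CS cells for Acaca, Fads1 and Fads2 and vehicle cells for Scd1 and Srebf1, and the 2 groups overlapped in each case. Me1 varied least, from 1031 ± 8.72 in 4CS + LPS cells to 1364 ± 107 in 4CS cells.

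The members did not share 1 profile over the 18 arrays. The Pearson correlation of each gene with the mean standardised profile of the other nine was 0.94 for Acaca, 0.93 for Elovl6 and 0.90 for Fads2, and 0.64 for Fasn and 0.51 for Me1. Outside the members, the 6 genes whose profile was most like the members' mean were Men1, Txndc5, R3hdm4, Tomm34, Syngr2 and Paxip1, with correlations of 0.96 each. Men1, for example, averaged 629 in fraction + LPS cells and 722 in fraction cells, against 919 in vehicle + LPS cells and 1107 in vehicle cells. These correlations describe 18 arrays whose main differences are the 6 groups, and they carry no test.

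Genes around the pathway were described through 5 lists. In the list of precursor and NADPH supply, 4 of 9 measured genes were lower and 0 higher with the fraction without LPS, and 3 and 0 with LPS. The shares over all genes were 15.3% lower of 31.2% called without LPS and 12.7% lower of 23.8% called with LPS. Aacs, acetoacetyl-CoA synthetase, fell by 1.17 on the log2 scale in fraction cells (adjusted p = 4.0e-05) and by 0.94 in fraction + LPS cells. Idh1, the cytosolic isocitrate dehydrogenase that makes NADPH, was at -0.76 ± 0.15 and -0.90 ± 0.15. Slc25a1, the citrate carrier of mitochondria, was at -0.54 ± 0.11 and -0.49 ± 0.11. These 3 genes were called under every scaling in both comparisons. The median of the 9 was -0.050 without LPS and -0.22 with LPS, against 0.018 and -0.017 over all genes.

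In the list of SREBP and LXR regulation, 5 of 20 genes were lower and 1 higher with the fraction without LPS, where 31.2% of all genes were called, and 2 and 0 with LPS, where 23.8% were called. The list's share called was thus about that of all genes without LPS and below it with LPS. Insig1, an SREBP target that holds SREBP precursors in the endoplasmic reticulum, averaged 188 in fraction cells, against 904 in vehicle cells, a difference of -2.27 ± 0.17 (adjusted p = 5.7e-09). With LPS it averaged 549 in fraction + LPS cells, against 1105 in vehicle + LPS cells (2.01-fold lower, adjusted p = 1.9e-04). Its interaction was 1.26 ± 0.23 (adjusted p = 0.0064), of the same sign as that of Fasn. Srebf2, the gene of the SREBP that acts mainly on cholesterol synthesis, was at -0.46 ± 0.13 without LPS and at -0.37 ± 0.13 with LPS, where quantile normalisation and median centring ended the call. Scap, the escort protein of SREBP, was at -0.37 ± 0.11 without LPS. The median of the 20 was -0.052 without LPS and -0.10 with LPS.

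In the list of acyl activation, elongation partners and other desaturases, 6 of 20 genes were lower and 3 higher with the fraction without LPS, where 31.2% of all genes were called, and 3 and 3 with LPS, where 23.8% were called. Mid1ip1, which promotes the polymerisation of acetyl-CoA carboxylase, was higher in fraction cells at both states, by 0.64 ± 0.15 and 0.75 ± 0.15. Acsl3, an acyl-CoA synthetase, was at -0.56 ± 0.13 without LPS, and the elongase Elovl1 was at -0.43 ± 0.086 with LPS. The list's median was -0.12 without LPS and -0.11 with LPS.

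In the glycerolipid list, 4 of 11 genes were lower and 1 higher with the fraction without LPS, where 31.2% of all genes were called, and 1 and 2 with LPS, where 23.8% were called. Plin2, the coat protein of lipid droplets, averaged 6156 in fraction cells, against 1537 in vehicle cells, 4.00-fold higher (2.00 ± 0.23, adjusted p = 1.6e-06). With LPS it was 2.81-fold higher in fraction + LPS cells (1.49 ± 0.23). Dgat2, which makes triglyceride, was higher in fraction + LPS cells (0.74 ± 0.22). Lpcat3, a phospholipid acyltransferase and LXR target, was lower in fraction cells (-0.47 ± 0.12) and not called in fraction + LPS cells (-0.26, adjusted p = 0.128). The median of the 11 was -0.31 without LPS and -0.11 with LPS. In the oxidation list, 0 of 10 genes were lower and 2 higher without LPS, and 2 and 0 with LPS, beside the same shares of all genes. Cpt1a, which commits fatty acids to mitochondrial oxidation, was higher in fraction cells (0.47 ± 0.15, adjusted p = 0.0208), a call lost under median centring, and Acadm, a medium-chain dehydrogenase, was lower in fraction + LPS cells (-0.46 ± 0.10). The list's median was 0.043 without LPS and 0.0030 with LPS.

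With LPS in vehicle cells, the counts lower and higher were 2 and 0 of 9 for precursor and NADPH supply, 2 and 3 of 20 for activation, elongation and other desaturases, 7 and 0 of 20 for SREBP and LXR regulation, 3 and 0 of 11 for glycerolipid synthesis and 3 and 0 of 10 for oxidation. Of all genes, 21.8% were lower and 31.9% called in this comparison. Centring on the tested genes changed the list counts to 0 and 1, 1 and 5, 5 and 1, 2 and 2, and 3 and 0. Elovl5, an elongase of polyunsaturated chains, fell by 0.84 on the log2 scale in vehicle + LPS cells (adjusted p = 2.9e-06), and Degs1, the sphingolipid delta-4 desaturase, was 0.61 ± 0.075 higher. Lpin1, a phosphatidate phosphatase, was at -1.45 ± 0.29 and Cpt1a at -0.78 ± 0.15. All of these held under every scaling. With 4CS, 0 genes of the 5 lists were called at either LPS state, among 0% of all genes.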

How the data were processed

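Total RNA was measured on 18 arrays, 3 in each of 6 groups taken from the sample titles. The deposited values are linear signal intensities of 45101 probe sets, made by the authors with MAS5, per the submitters' processing notes; its version is not given in the sources used here. The 2% trimmed mean is 500.0 on all arrays. Control probe sets (64) and those with several symbols (932) or none (9160) were left out. The log2 scale was used after raising intensities under 1 (0.824% of values) to 1. Probe sets that reached the array median on fewer than 3 arrays were dropped, and the brightest of those left stood for each of 11547 genes.

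In limma 3.58.1 (R 4.3.3), all arrays entered a model of the 6 groups with 11 contrasts and 12 residual degrees of freedom. Variances were moderated by eBayes with an intensity trend, tests were two-sided, and p-values were adjusted over all genes by Benjamini-Hochberg. Alternatives were a replicate block, quantile normalisation, median centring, log2 of the value plus 32, no filter, a 75th percentile filter, no trend, every probe set, only the compared arrays, and left-out arrays. Centring on the tested genes was added after seeing the data. The number of arrays and their spread limit precision. Same-numbered arrays deviated together weakly, though with positive correlations throughout (0.018 to 0.170, median 0.088). In 0 of 13 pairs of groups were all over 0.1. The numbers may therefore share something that the labels do not name. Arrays of different numbers had correlations from -0.13 to 0.052 (median -0.037). Group means were subtracted before correlating, which ties these values to those of same-numbered arrays, so they add no separate evidence. Scd1 was highest on array 2 in 5 of the 6 groups. The main fit did not treat the arrays as paired, and the calls that the replicate block changed are given below. Sequences are RefSeq promoter windows on GRCm38.p6. All 10 members are named in every comparison, with at most 4 called genes per related list. The members and lists were chosen with earlier results of these data known.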

Additional observations from a re-analysis of the deposited data

Results flagged for a closer look

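The interaction of fraction and LPS for Fasn was 0.62, because the LPS difference was tested between fraction and vehicle cells and passed the threshold: 0.56 in fraction cells, against -0.062 in vehicle cells. The interaction for Scd2 was -1.26 by the same test, with LPS differences of -2.39 in fraction cells and -1.13 in vehicle cells. What underlies either was not tested.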

How the results depend on the processing

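Of 1236 values of single members recomputed under another setting, 1130 kept their direction and side of the threshold, 61 lost the call, 21 gained it and 24 turned sign. The number of members called for LPS in vehicle cells was 5, and 3 under quantile normalisation, 3 under centring on the tested genes and 3 to 5 with arrays left out. For the interaction of fraction and LPS it was 2, and 1 under quantile normalisation, no filter, no intensity trend, every probe set, only the compared arrays and centring on the tested genes, 0 under median centring, and 1 to 2 with arrays left out. Every change of sign was of a small value: LPS in vehicle cells, Acly -0.053 under quantile normalisation and -0.084 under median centring, and with centring on the tested genes Fasn 0.12 and Me1 0.044; LPS in fraction cells, Acaca 0.050 under quantile normalisation and, with centring on the tested genes, Acaca 0.10, Acly 0.10, Srebf1 0.093 and Me1 0.097; LPS in 4CS cells, Acly -0.046 under quantile normalisation and Fasn 0.018 and 0.11 under median centring and centring on the tested genes; fraction with LPS, Me1 0.0016 under quantile normalisation. With arrays left out, Fasn for LPS in vehicle cells ran from -0.12 to 0.024, Me1 for LPS in fraction cells from -0.17 to 0.013, Acly and Fasn for LPS in 4CS cells from -0.039 to 0.046 and from -0.097 to 0.033, and Me1 for the fraction without and with LPS from -0.16 to 0.019 and from -0.069 to 0.032. The causes were not tested. Under the replicate block, Scd1 was called lower for the fraction without LPS (adjusted p = 0.002) and with LPS (0.0028), against 4CS without LPS (0.002) and for LPS in 4CS cells (0.0023), and Fads1 for LPS in fraction cells (0.0496); no other member's call changed, and the replicate block called 467 genes in all for the interaction, against 247 without it. Over all genes, median centring called 86 for that interaction, no trend 125, the compared arrays alone 141, and single left-out arrays 123 (vehicle + LPS 2) to 344 (vehicle + LPS 1). For 4CS with LPS, where limma called 0, testing every probe set called 2 and leaving out all arrays numbered 1 called 63. Testing all 25611 kept probe sets in place of 11547 genes called 268 for that interaction and 1.66 to 1.76 times as many features in the comparisons outside the interactions and 4CS against vehicle, but a lower share (24.5%, against 31.9% of genes, for LPS in vehicle cells). Median centring called 1848 for LPS in 4CS cells, against 2844, and 1761 for the fraction with LPS, against 2746. It moved the split of higher and lower calls to 938 and 1959 for the fraction without LPS, against 1837 and 1771, and to 669 and 2939 for LPS in vehicle cells, against 1161 and 2519, which centring on the tested genes moved to 2366 and 1351. All intensities of the brightest probe set of each member lay above every array median.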
